A study of Homo sapiens with 4 samples.

Results

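The mitochondrial ribosomal protein (MRP) genes are nuclear genes for proteins of the ribosome that works inside mitochondria. They were taken as all protein-coding genes whose symbol in the array annotation is MRPL or MRPS followed by a number and at most 1 letter, with the brightest probe set where a gene had several. This gave 73 of the 14812 named genes. RefSeq lists 77 protein-coding genes with such symbols, and the other 4 (MRPL12, MRPS6, MRPS18C and MRPS24) were not analysed here. Expression was compared between 2 samples of the human neuroblastoma cell line BE(2)C transfected with siRNA against SSRP1 and 2 samples of the same line transfected with a non-targeting control siRNA. Both groups received a lipid transfection reagent, and total RNA was taken 72 hours after transfection. SSRP1 is a subunit of FACT, a histone chaperone that moves nucleosomes aside for the polymerases. The labels give 1 catalogue number for the SSRP1 siRNA, and separate cultures are not stated for the 2 replicates of a group. The spread behind the p-values is therefore that of these samples, and it may be a technical one.

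The mitochondrial ribosome translates the few messenger RNAs of the mitochondrial genome, which encode core membrane subunits of the respiratory chain and of the ATP synthase. Its RNA comes from the mitochondrial genome, whereas all of its proteins are made in the cytosol from nuclear genes and imported. Some of these proteins descend from bacterial ribosomal proteins, and others were added in mitochondria. The names do not always give the place of a protein: MRPS18A and MRPS30 carry small subunit names but sit in the large subunit, and they are counted there below.

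The data were 1 whole-transcript array per sample, 4 arrays in all, with log2 values made by RMA. Pearson correlations over all probe sets were 0.991 between the SSRP1 siRNA arrays, 0.993 between the control siRNA arrays and 0.990 to 0.991 across groups. SSRP1 itself had log2 values of 7.42 and 6.97 with SSRP1 siRNA, against 9.05 and 9.23 with control siRNA, a change of -1.95 ± 0.17 (SE, limma adjusted p = 0.0479). That adjusted p was 0.0569 with the replicate number as a block and 0.241 to 0.599 without any 1 array, with the same direction each time. Of 12 measured sympathoadrenal markers of neuroblastoma the median log2 value was 8.81 with SSRP1 siRNA and 9.02 with control siRNA, and that of 11 markers of blood, vessel, stroma, epithelium, liver and glia was 3.27 with SSRP1 siRNA and 3.17 with control siRNA. Of these 12, 9 had a change below 0, beside 51.7% of all named genes, and the smallest p were those of DBH, which makes noradrenaline (change -0.77, adjusted p = 0.111), and of the transcription factor gene HAND2 (change -0.38, adjusted p = 0.263). The other 3 sympathoadrenal markers had changes above 0, the highest at 0.34. The matrix gene LUM stood apart among the markers of other cell types, at 8.59 and 8.35 with SSRP1 siRNA and 7.64 and 6.91 with control siRNA (adjusted p = 0.184). The epithelial marker EPCAM had a change of -0.22 (adjusted p = 0.515). Its values were dim, 2.76 and 2.75 with SSRP1 siRNA and 3.09 and 2.87 with control siRNA. The part of these marker differences in the results below was not tested. In RNA from whole cultures, fewer cells of a kind and less RNA per cell cannot be told apart. Since RMA makes the arrays' distributions nearly alike, a change is relative to the other transcripts on the array.

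None of the 73 MRP genes passed the test after SSRP1 depletion, and their measured changes lay close to 0 on both sides. The largest positive change was that of MRPL35 (1.26-fold) and the largest negative change that of MRPL23 (0.846-fold). The median log2 change over the members was 0.01, beside -0.01 over all named genes, with 39 members above 0 and 34 below. Over all named genes 48.3% lay above 0 and 51.7% below. The middle part of the members, between the quartiles, ran from -0.05 to 0.10, beside -0.13 to 0.12 over all named genes. The SD of the members' changes was 0.126 and the median SE of a member's change was 0.108, so that the members differed from each other by about as much as the error of a single change. Over all named genes the SD of the changes was 0.230, with a median SE of 0.117.

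In limma's test with Benjamini-Hochberg adjustment over all named genes, 0 of 73 members had an adjusted p under 0.05, where the share over all named genes was 0.0945%. Among the members the lowest adjusted p was 0.325. An unadjusted p under 0.05 was reached by 3 members with a positive change (4.11%), beside 6.56% of all named genes, and by 0 members with a negative change, beside 6.03% of all named genes. The groups did not overlap for 20 members that were higher with SSRP1 siRNA (27.4%), beside 21.8% of all named genes, and for 9 members that were lower (12.3%), beside 22.5% of all named genes. These shares describe the members on these arrays and were not tested against other genes. The background of all named genes, used here and below, was not matched for level. Of 8577 named genes with a mean level inside the members' range, 2265 were higher and 2155 lower without overlap. With a variance trend 2 members with a negative change had an unadjusted p under 0.05, and with only the brighter genes tested there was 1.

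**Figure D1:**
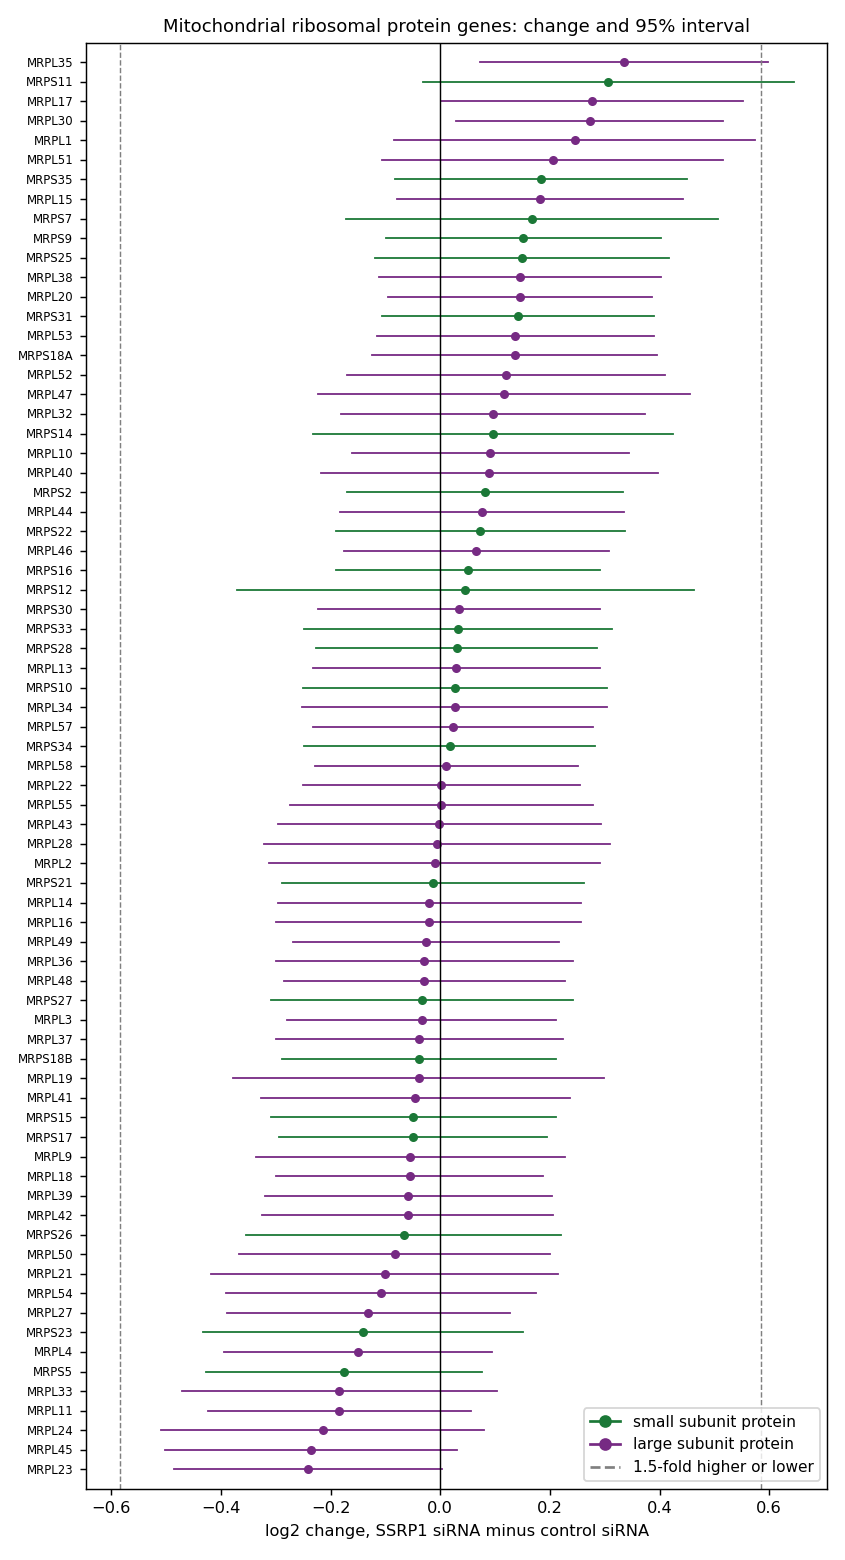
The log2 change of each of the 73 MRP genes (points, SSRP1 siRNA minus control siRNA) is drawn with its 95% interval from limma (bars), sorted by size and coloured by ribosomal subunit. The intervals of 71 genes lie between the dashed lines at 1.5-fold, and those of MRPL35 and MRPS11 cross the upper one.

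The intervals of the changes give the size of difference between these samples that the arrays could bound. For all 73 members the 95% interval of the change lay inside 2-fold in either direction, beside 97.5% of all named genes, and for 71 it lay inside 1.5-fold, beside 78.2%. The exceptions at 1.5-fold were MRPL35 and MRPS11, whose intervals reached 1.51-fold and 1.56-fold. On the low side the furthest bound was that of MRPL24, at 0.703-fold. These intervals hold for 1 gene at a time and are not adjusted for the number of genes. They rest on the same spread as the p-values, which is that of these samples and may be technical.

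**Figure D2:**
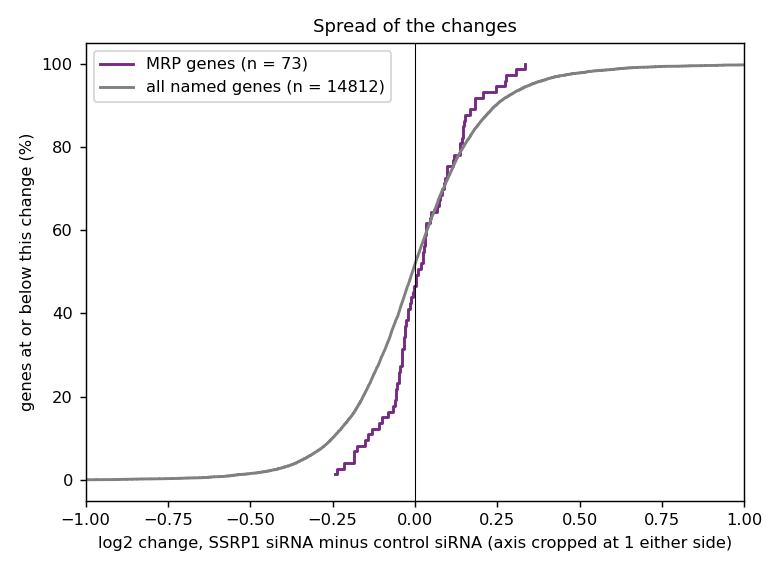
The share of genes (y axis, percent) at or below a given log2 change (x axis) is drawn for the 73 MRP genes and for all 14812 named genes. The MRP curve is the steeper one and ends at -0.24 and 0.33, while the curve of all genes runs past the cropped ends of the axis.

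The members' changes were set beside the gaps between replicates of the same treatment. A change compares means of 2 arrays and a gap compares single arrays, so their sizes are not directly comparable. The median size of the change over the members was 0.0726 on the log2 scale, while the median gap between the replicates was 0.110 with SSRP1 siRNA and 0.0797 with control siRNA. For 23 members (31.5%) the change was larger than the gap between replicates in both groups, and the same share, 31.5%, was found over all named genes. The members also shared a difference between replicates: 54 of the 73 (74.0%) were higher on the SSRP1 siRNA replicate 2 array than on the replicate 1 array, beside 50.2% of all named genes. In the control siRNA group 46 members (63.0%) were higher on the replicate 2 array, beside 48.9% of all named genes. Set against each gene's mean over the 4 arrays, the members had a median deviation of -0.017 and 0.042 on the SSRP1 siRNA arrays and of -0.025 and 0.004 on the control siRNA arrays. The order of the 4 arrays was not the order of the treatments, since the first SSRP1 siRNA array lay below the second control siRNA array. Without SSRP1 siRNA replicate 1 the median change of the members was 0.046, and without SSRP1 siRNA replicate 2 it was -0.003.

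**Figure D3:**
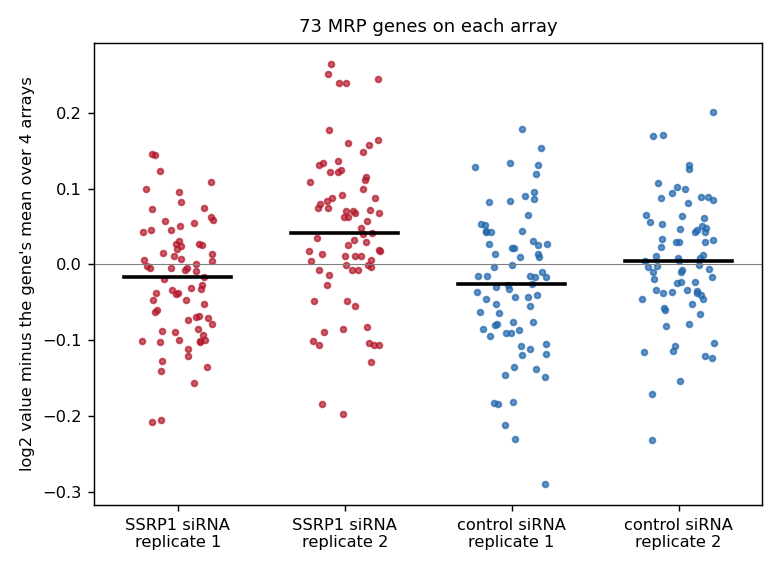
Each point is 1 of the 73 MRP genes on 1 array, as its log2 value minus that gene's mean over the 4 arrays, and black bars are medians over the genes. The medians lie at -0.017 and 0.042 on the SSRP1 siRNA arrays and at -0.025 and 0.004 on the control siRNA arrays, so the groups overlap.

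The 23 measured small subunit proteins, which form the part of the ribosome that holds the messenger RNA and reads its codons, had a median log2 change of 0.03, with 15 above 0 and 8 below. The lowest change was -0.18 and the highest 0.31, and none had an unadjusted p under 0.05 in limma. For the 14 that descend from bacterial proteins the median was 0.04, and for the 9 added in mitochondria it was 0.03. Without control siRNA replicate 2 the small subunit median was 0.10, and without control siRNA replicate 1 it was -0.01.

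MRPS11, a small subunit protein with a bacterial counterpart, had log2 values of 7.74 and 7.93 with SSRP1 siRNA, against 7.39 and 7.66 with control siRNA (change 0.31 ± 0.14, SE, adjusted p = 0.432). Both SSRP1 siRNA arrays lay above both control siRNA arrays, but the gap between the control replicates was 0.274, nearly as wide as the change. MRPS35, a protein found only in mitochondrial ribosomes, had 8.44 and 8.57 with SSRP1 siRNA, against 8.28 and 8.37 with control siRNA (change 0.18 ± 0.11, SE, adjusted p = 0.555). MRPS9, again of bacterial descent, had 6.97 and 7.04 with SSRP1 siRNA, against 6.89 and 6.81 with control siRNA (change 0.15 ± 0.10, SE, adjusted p = 0.605). In both genes the groups were apart without overlap, with SSRP1 siRNA the higher, as in 21.8% of all named genes.

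On the negative side MRPS5, whose bacterial counterpart helps to keep decoding accurate, had 7.69 and 7.75 with SSRP1 siRNA, against 7.85 and 7.94 with control siRNA (change -0.18 ± 0.10, SE, adjusted p = 0.553). It was the 1 small subunit gene of 23 with all SSRP1 siRNA values below all control values, beside 22.5% of all named genes, while 7 had all of them above, beside 21.8%. MRPS23, a mitochondrial addition, had 7.87 and 7.98 with SSRP1 siRNA, against 7.97 and 8.17 with control siRNA (change -0.14 ± 0.12, SE, adjusted p = 0.683), and here the groups overlapped. MRPS21 and MRPS34, which had the highest probe set values among the small subunit genes, had changes of -0.01 and 0.02, and that of MRPS34 was -0.01 after a further quantile normalization. Such values depend on each probe set's own response and do not rank the amounts of RNA of different genes.

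The 50 measured large subunit proteins, which surround the site where peptide bonds are formed and the tunnel through which the new chain leaves, had a median log2 change of -0.003, with 24 above 0 and 26 below. Their changes ran from -0.24 to 0.33, so both ends of the family lay in this subunit. The 30 of bacterial descent had a median of -0.01 and the 20 added in mitochondria a median of 0.005. All 3 members with an unadjusted p under 0.05, MRPL35, MRPL30 and MRPL17, were large subunit proteins of bacterial descent with positive changes.

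MRPL35 had log2 values of 7.28 and 7.42 with SSRP1 siRNA, against 7.004 and 7.031 with control siRNA (change 0.33 ± 0.11, SE, adjusted p = 0.325). MRPL30 had 7.35 and 7.41 with SSRP1 siRNA, against 7.09 and 7.12 with control siRNA (change 0.27 ± 0.10, SE, adjusted p = 0.361). MRPL17, one of the proteins around the exit of the tunnel, had 6.28 and 6.27 with SSRP1 siRNA, against 6.09 and 5.91 with control siRNA (change 0.28 ± 0.11, SE, adjusted p = 0.393). In these 3 genes, picked by their small p, both SSRP1 siRNA arrays lay above both control siRNA arrays, as in 21.8% of all named genes. The change was also wider than either gap between replicates, which held for 31.5% of all named genes in either direction. MRPL1, a protein of the mobile L1 stalk, had 5.70 and 5.98 with SSRP1 siRNA, against 5.53 and 5.66 with control siRNA (change 0.25 ± 0.13, SE, adjusted p = 0.526), with a gap of 0.285 between the SSRP1 siRNA replicates, wider than the change. The other named large subunit genes on this side, MRPL51, MRPL15 and MRPL20, had changes of 0.21, 0.18 and 0.14, with adjusted p of 0.570, 0.550 and 0.608.

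MRPL23, which lies at the tunnel exit, had the lowest change, with 3.976 and 4.005 for SSRP1 siRNA, against 4.26 and 4.20 for control siRNA (change -0.24 ± 0.10, SE, adjusted p = 0.403). It was also the dimmest member, below the median level of 4.64 over all named genes. MRPL45, which holds the ribosome to the inner membrane, had 8.81 and 8.65 with SSRP1 siRNA, against 8.98 and 8.95 with control siRNA (change -0.24 ± 0.11, SE, adjusted p = 0.448). MRPL24, also at the exit, had 7.24 and 7.44 with SSRP1 siRNA, against 7.49 and 7.61 with control siRNA (change -0.21 ± 0.12, SE, adjusted p = 0.534). The values of the 2 groups did not overlap in any of these 3 genes, which were picked by small p. Over all named genes 22.5% were lower without overlap.

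MRPL11, which forms the base of the stalk that receives translation factors, had 7.14 and 7.16 with SSRP1 siRNA, against 7.34 and 7.33 with control siRNA (change -0.18 ± 0.10, SE, adjusted p = 0.513). Its replicates lay closer together than those of the other negative members described here. MRPL33 had 6.47 and 6.44 with SSRP1 siRNA, against 6.53 and 6.75 with control siRNA (change -0.18 ± 0.12, SE, adjusted p = 0.581). The remaining named genes on this side were MRPL4, which lines the tunnel, MRPL27, whose bacterial counterpart reaches the site of peptide bond formation, and MRPL54, with changes of -0.15, -0.13 and -0.11. Of the brightest and dimmest large subunit probe sets, MRPL3 had a change of -0.03, MRPL52 one of 0.12 and MRPL43 one of -0.002, which was 0.01 after centring on array medians.

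**Figure D4:**
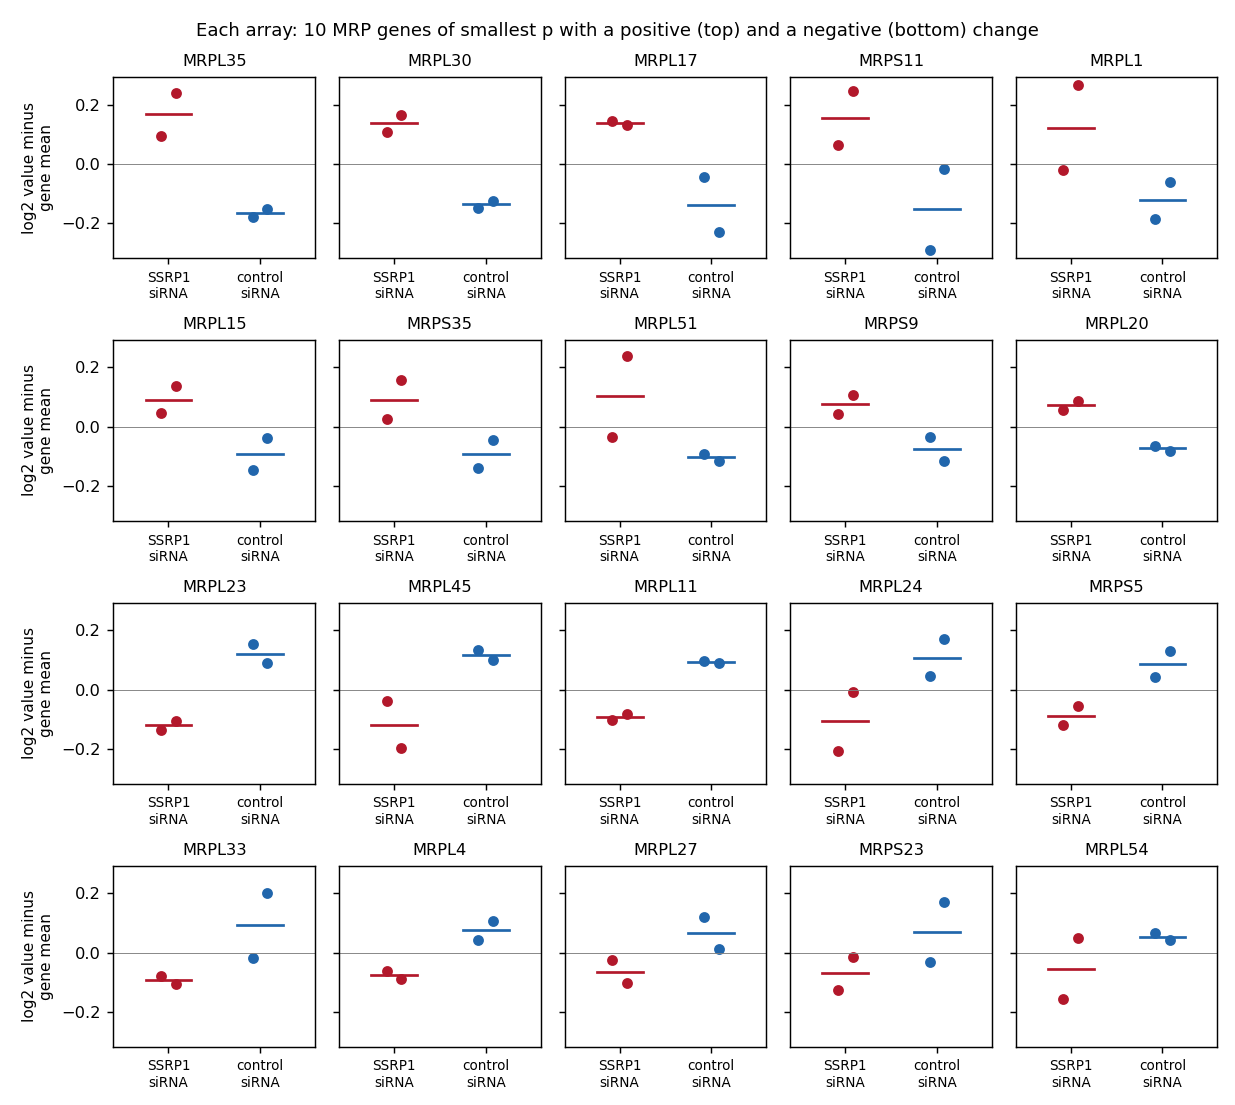
Log2 values on each array, minus the gene's mean over the 4 arrays, are plotted for the 10 MRP genes of smallest p with a positive change (upper 2 rows) and the 10 with a negative change (lower 2 rows), with SSRP1 siRNA left of control siRNA; points are arrays and bars group means. The groups overlap in MRPS23 and MRPL54 and are apart in the other panels, with distances between group means of at most 0.33. Picking genes by small p favours groups that are apart. Over all 73 members the groups did not overlap for 27.4% that were higher, beside 21.8% of all named genes. For those that were lower it was 12.3%, beside 22.5%. The shares of all named genes were not matched for level.

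Functional regions of the large subunit held members on both sides of 0. Of 8 proteins at the polypeptide exit site, 4 had positive and 4 negative changes, with a median of -0.03. This site held MRPL17 at 0.28 and, at the other end, MRPL23, MRPL45 and MRPL24. Among the 4 measured proteins of the stalk for translation factors, MRPL53 and MRPL10 had changes of 0.14 and 0.09, against -0.18 and -0.11 for MRPL11 and MRPL54. The 9 proteins of the central protuberance, the knob that faces the small subunit, had a median of 0.03 with 6 above 0, and MRPL38 (0.15) and MRPL27 (-0.13) had the smallest p. Of 15 measured members in which inherited variants are known to cause mitochondrial disease, 9 were above 0 and 6 below, with a median of 0.03 and changes from -0.21 (MRPL24) to 0.17 (MRPS7).

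MRPS18A and MRPS18B are paralogues that both descend from the bacterial protein S18. MRPS18A, placed in the large subunit, had 7.69 and 7.80 with SSRP1 siRNA, against 7.65 and 7.57 with control siRNA (change 0.14 ± 0.11, SE, adjusted p = 0.658). MRPS18B, placed in the small subunit, had 7.902 and 8.0002 with SSRP1 siRNA, against 8.0008 and 7.978 with control siRNA (change -0.04 ± 0.10, SE, adjusted p = 0.917). The 7 probe sets that name MRPS18B carried identical values and count as 1 measurement.

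Of the 4 members with several probe sets, MRPL44 and MRPS2 had sets that differed in sign. The probe set used for MRPL44, a protein related to RNase III enzymes, had a change of 0.08 at a level near 8, while its other set was dim (1.45 and 1.58 with SSRP1 siRNA, 1.70 and 1.49 with control siRNA) and had a change of -0.08. The sets of MRPS2 had changes of 0.08 and -0.001. In MRPS16 the set used had a change of 0.05 and the dimmer one a change of 0.20.

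Mitochondrial ribosome proteins whose symbols fall outside the MRP names were measured for DAP3, PTCD3 and CHCHD1, all of the small subunit. DAP3, a GTP-binding protein, had 7.54 and 7.60 with SSRP1 siRNA, against 7.46 and 7.34 with control siRNA (change 0.16 ± 0.11, SE, adjusted p = 0.586). PTCD3, a pentatricopeptide repeat protein, and CHCHD1 had changes of 0.11 and 0.08, with adjusted p of 0.699 and 0.806. In each of the 3 genes both SSRP1 siRNA values lay above both control values, as in 21.8% of all named genes, and the 3 were not tested against the MRP genes. AURKAIP1, GADD45GIP1 and a separate entry for ICT1 (now MRPL58, a member above) were not analysed here.

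Genes that build or serve the mitochondrial ribosome were described in the same way, and none of them passed the test. Of 24 measured genes for ribosome assembly and modification of its RNA, 12 lay above 0 and 12 below, with a median of -0.01. MRM1, which methylates the large ribosomal RNA, had 6.61 and 6.49 with SSRP1 siRNA, against 6.98 and 7.01 with control siRNA (change -0.44 ± 0.10, SE, adjusted p = 0.216). DDX28, an RNA helicase of large subunit assembly, had 6.36 and 6.20 with SSRP1 siRNA, against 5.80 and 5.96 with control siRNA (change 0.40 ± 0.12, SE, adjusted p = 0.296). Both changes were larger in size than that of any MRP gene, and they ran in opposite directions.

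Among 11 measured translation factors of mitochondria the median change was 0.002. MTRES1 had a change of 0.30 (adjusted p = 0.384) and MRRF, the factor that frees the ribosome after translation, a change of -0.24 (adjusted p = 0.471). Of 25 listed genes for charging mitochondrial transfer RNAs only 4 were measured. All 4 were above 0, as were 48.3% of all named genes, with changes from 0.02 to 0.26. The smallest p were those of GATB at 0.26 and QRSL1 at 0.07, which encode subunits of the enzyme that makes glutaminyl-tRNA. The lowest adjusted p in limma was 0.554. In 14 genes of mitochondrial DNA transcription and RNA stability the median was 0.03, with MTERF1, a factor that binds mitochondrial DNA, at 0.52 (adjusted p = 0.320) from dim values of 3.95 and 4.25 with SSRP1 siRNA, against 3.74 and 3.42 with control siRNA. TRMT10C, a subunit of mitochondrial RNase P, had a change of 0.24 (adjusted p = 0.425).

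Of 6 measured nuclear regulators linked to mitochondrial genes, 2 lay above 0 and 4 below. ESRRA, an orphan nuclear receptor that activates genes of energy metabolism, had 4.88 and 4.66 with SSRP1 siRNA, against 5.07 and 5.06 with control siRNA (change -0.29 ± 0.12, SE, adjusted p = 0.394). YY1 had a change of -0.10 (adjusted p = 0.760) and NRF1, a factor named for its sites in respiratory genes, a change of 0.10 (adjusted p = 0.774). Neither reached beyond its spread, and in both genes the groups overlapped.

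Promoters of the members were examined for letters that these and related factors are known to bind, since genes for mitochondrial proteins often carry sites of ETS factors, NRF1 and YY1 near their starts. RefSeq promoter windows of GRCh38.p14, 250 bases before to 50 after a start, were matched by symbol for 65 of the 73 members, with 81 windows in all, as some genes have several. MRPL35 and MRPL23, the members with the highest and the lowest change, were among those without a window. The ETS letters CCGGAAG were found on either strand in 39.5% of the members' windows, beside 12.8% of 22199 windows of protein-coding genes. The YY1 letters AAGATGGC were found in 27.2%, beside 3.53% of all. For the other motifs the shares lay closer to the background: 6.17% beside 3.74% for GCGCATGC, part of the NRF1 site, 9.88% beside 8.34% for the E-box CACGTG, 60.5% beside 56.3% for the GC box GGGCGG and 33.3% beside 34.7% for CCAAT. The TATA letters TATAAA were found in 3.70% of the members' windows, beside 9.47% of all. At least 1 of the ETS and YY1 letters was found for 41 of the 65 members (63.1%), beside 20.0% of all genes, and both for 8 (12.3%), beside 1.17%. The ETS and YY1 letters can overlap by AAG, and such an overlap occurred in 0 of the members' windows. The background was not matched for level, and 71 of the 73 members lay at or above the median level of all named genes. Whether the shares differ from those of other genes at such levels was not tested. These matches are a description of the windows and do not show that a factor was bound.

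**Figure D5:**
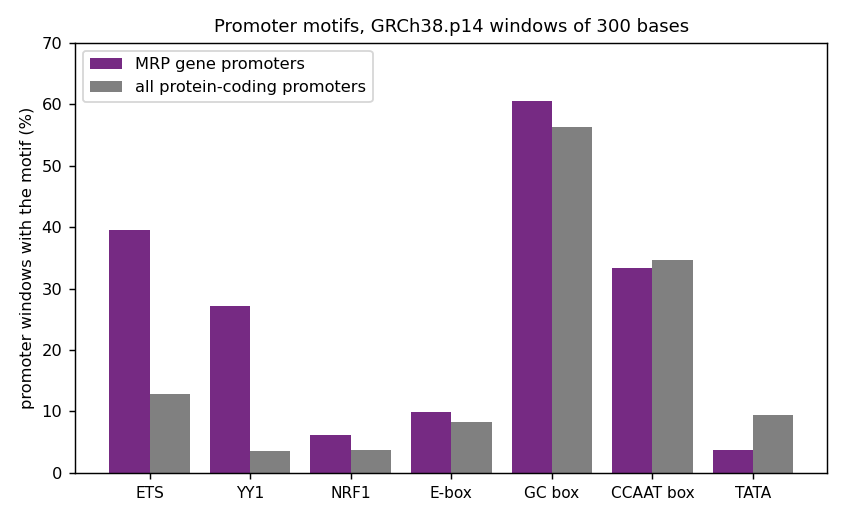
Bars give the percent of promoter windows that hold each motif on either strand, for the MRP genes (81 windows) and for all protein-coding genes (22199 windows). The ETS and YY1 bars of the MRP genes stand at 39.5% and 27.2%, above 12.8% and 3.53% for all windows.

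The 5 windows below all hold ETS or YY1 letters and come from members with positive and negative changes and 1 from the middle of the range. They show how these letters sit near the start in these genes. Capitals mark the ETS letters and the YY1 letters, each on either strand, and each window is written 5′ to 3′ in the direction of the gene. MRPL30 (chr2:99180934-99181233, plus strand) and MRPL51 (chr12:6493213-6493512, minus strand) had positive changes of 0.27 and 0.21. MRPL46 (chr15:88467339-88467638, minus strand) had a change of 0.07. MRPL33 (chr2:27771469-27771768, plus strand) and MRPL45 (chr17:38296918-38297217, plus strand) had negative changes of -0.18 and -0.24.
MRPL30: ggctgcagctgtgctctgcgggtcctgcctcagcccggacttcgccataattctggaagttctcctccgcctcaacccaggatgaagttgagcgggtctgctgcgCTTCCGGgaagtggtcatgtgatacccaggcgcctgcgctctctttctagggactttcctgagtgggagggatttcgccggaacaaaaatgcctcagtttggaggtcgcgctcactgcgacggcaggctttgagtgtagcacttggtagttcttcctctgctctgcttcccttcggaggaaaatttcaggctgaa
MRPL51: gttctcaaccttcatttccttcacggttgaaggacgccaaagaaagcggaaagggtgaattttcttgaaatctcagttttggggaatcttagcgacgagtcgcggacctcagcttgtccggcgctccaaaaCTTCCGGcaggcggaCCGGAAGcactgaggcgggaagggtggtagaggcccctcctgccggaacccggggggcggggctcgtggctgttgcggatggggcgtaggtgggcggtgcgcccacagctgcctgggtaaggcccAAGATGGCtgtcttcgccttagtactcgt
MRPL46: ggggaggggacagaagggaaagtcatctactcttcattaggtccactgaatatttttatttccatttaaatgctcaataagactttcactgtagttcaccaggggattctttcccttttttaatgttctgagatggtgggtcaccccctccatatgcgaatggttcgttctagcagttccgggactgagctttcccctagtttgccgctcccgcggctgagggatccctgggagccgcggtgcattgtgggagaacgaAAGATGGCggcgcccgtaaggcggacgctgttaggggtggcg
MRPL33: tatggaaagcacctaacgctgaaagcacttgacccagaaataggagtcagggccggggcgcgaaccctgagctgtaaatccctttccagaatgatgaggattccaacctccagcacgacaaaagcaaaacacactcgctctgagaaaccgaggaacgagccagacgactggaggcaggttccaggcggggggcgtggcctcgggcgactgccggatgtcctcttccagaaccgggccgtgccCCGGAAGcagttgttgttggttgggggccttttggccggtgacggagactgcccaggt
MRPL45: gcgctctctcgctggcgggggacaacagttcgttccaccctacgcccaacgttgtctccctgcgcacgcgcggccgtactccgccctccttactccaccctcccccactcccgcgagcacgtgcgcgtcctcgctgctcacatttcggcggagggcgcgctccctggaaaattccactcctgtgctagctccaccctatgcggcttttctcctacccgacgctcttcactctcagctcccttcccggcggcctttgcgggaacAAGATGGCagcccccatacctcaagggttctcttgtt
In MRPL51, MRPL46 and MRPL45 the YY1 letters lay within the first transcribed bases. The ETS letters began 145 bases before the start in MRPL30, 119 and 104 bases before it in MRPL51 and 8 bases before it in MRPL33. These are examples that hold the letters, as 41 of the 65 members do. They cannot show whether the letters go with the sign of a change.

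The 29 members with the ETS letters in any window had a median log2 change of 0.03, with 17 above 0 and 12 below, beside -0.02 for the 36 members without. For the 20 members with the YY1 letters the median was 0.04, with 13 above 0 and 7 below, beside -0.01 for the 45 without. The 5 members with the NRF1 letters had a median of 0.10, with 4 above 0 and 1 below, beside 0.0003 for the 60 without, and ran from MRPS18B at -0.04 to MRPL17 at 0.28. None of these differences between members with and without the letters was tested. Members without a window, MRPL35 and MRPL23 among them, are in neither group.

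Some MRP genes have a neighbour that starts nearby and is read in the other direction. Whether the genes of such a pair share a promoter was not tested. A start of another protein-coding gene on the opposite strand, within 1000 bases and pointing away, was found for 19 of 65 members (29.2%). The share was 12.3% of all genes with a window, which were not matched for level. In 1 of these pairs both genes were members: MRPS11 and MRPL46, whose starts are 320 bases apart, had changes of 0.31 and 0.07. The partner was measured in 10 of the 18 pairs, and in 6 of these 10 both genes had changes of the same sign. None of the partners passed the test. The widest difference within a pair was that of MRPS2 and PIERCE1, at 0.08 and -0.39, with starts 96 bases apart. Next came MRPL14 and TMEM63B, at -0.02 and 0.24, with starts 240 bases apart, and MRPL27 and EME1, a gene of a DNA repair nuclease, at -0.13 and -0.38, with starts 45 bases apart. MRPL40 and the histone chaperone gene HIRA, 812 bases apart, had changes of 0.09 and 0.20, and MRPL49 and the ribosomal protein gene FAU changes of -0.03 and -0.04.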

How the data were processed

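The authors deposited 1 log2 expression value per probe set and array. RMA is the method named in the submitters' processing notes, without a software version or probe set definition, and the log2 scale was read from the values. Of 46255 deposited probe sets, 15835 had 1 gene symbol in the platform annotation, 0 had several and 30420 were unnamed here. They named 14812 genes, and for the 651 genes with several sets the one with the highest mean was used. All gene IDs were found in RefSeq (GRCh38.p14).

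Samples were grouped by title. limma 3.58.1 (R 4.3.3) was fitted on all 4 arrays and all named genes, SSRP1 siRNA minus control siRNA, without filter, block or variance trend. The fit had 2 residual and 3.79 prior degrees of freedom. P-values are two-sided, and a gene passed at a Benjamini-Hochberg adjusted p under 0.05. No detection values were used here, and the number of arrays limits the precision. The fit was run on data simulated from its own variance model, with added changes larger than that of any member. That run cannot show how often changes of the members' size would be found.

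MRP genes named with values are the 10 of smallest p in each direction, the 3 brightest and 3 dimmest, the S18 family and those whose probe sets differ in sign, and in other lists the 2 of smallest p. Other genes were named after their values were seen. Members and lists were chosen with earlier results of these data known. Promoter motifs and pairs were counted in RefSeq windows as a description. Alternatives were a replicate block, variance trend, robust variances, quantile normalization, median centring, averaging over probe sets of a gene, brighter genes only, all probe sets, an adjusted p under 0.1 and each array left out.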

Additional observations from a re-analysis of the deposited data

How the results depend on the processing

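Under every alternative run, 0 of the MRP genes passed limma's test, including at an adjusted p under 0.1. The number of all named genes that passed, 14 in the report, was 6 with the replicate number as a block, 215 with a variance trend, 9 with robust variances, 28 after quantile normalization, 179 among genes at or above the median level, 0 over all probe sets (smallest adjusted p 0.0783, 3854 at an unadjusted p under 0.05), 41 at an adjusted p under 0.1 and 0 without any 1 array. The SSRP1 change was -1.95 with the replicate block (adjusted p = 0.0569), with robust variances (adjusted p = 0.0512) and over all probe sets (adjusted p = 0.144), and ran from -2.17 to -1.72 without 1 array (adjusted p = 0.241 to 0.599). The cause was not tested where it is not fewer samples or more features. Members with a negative change and an unadjusted p under 0.05 numbered 2 with a variance trend and 1 among brighter genes. Those with a positive change, 3 in the report, numbered 1 over all probe sets and 0 to 3 without 1 array. Without 1 array the median change ran from -0.0032 to 0.046 for the members, from -0.0068 to 0.10 for the small subunit and from -0.032 to 0.047 for the large subunit, with 1 residual degree of freedom. Of 29 named members, 23 kept the sign of their change in every alternative, and the 6 others lay near 0. The block, variance trend, robust variances, brighter genes and all probe sets leave the change itself as it was. Leaving out 1 array cannot turn the sign of a gene whose groups do not overlap, and most named members were picked by small p. That count was therefore largely fixed in advance. After quantile normalization the change of MRPL43 was 0.024 and that of MRPS34 -0.013, after median centring that of MRPL43 was 0.0094, and over the mean of its probe sets that of MRPL44 was -0.002. Without 1 array the changes ran from -0.102 to 0.0987 for MRPL43, from -0.062 to 0.096 for MRPS34, from -0.107 to 0.080 for MRPS21, from -0.067 to 0.00015 for MRPL3 and from -0.087 to 0.011 for MRPS18B. The replicate numbers are not said to mark a shared culture, and deviations of equally numbered samples correlated at 0.114 over named genes, in only 1 pair of deviations. The block moved no member past the test (lowest adjusted p 0.286). All probe set values are relative to the other transcripts, and the absence of detection values here limits what can be said of dim members such as MRPL23.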
